A study of Bos taurus with 8 samples.

Results

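Antigen presentation genes were followed in bovine embryos of the 4-cell and 8-cell stage, either control or edited at RPL12, the gene of a large-subunit ribosomal protein. The set was a list of 9 gene symbols: B2M, BOLA, TAP1, TAP2, TAPBP, CALR, PDIA3, NLRC5 and CD74. Of these, 8 were among the 16606 genes of the expression table; CD74, the invariant chain of class II molecules, was not analysed here. Oocytes from slaughterhouse ovaries were matured and fertilised in vitro with Holstein semen, and 5 embryos were pooled for each RNA-seq library. The 4 groups, with 2 libraries each, were control embryos at the 4-cell stage, edited embryos at the 4-cell stage, control embryos at the 8-cell stage and edited embryos at the 8-cell stage. Edited zygotes had received PEmax, a prime editor that joins a Cas9 nickase to a reverse transcriptase, with a guide RNA, by injection into the cytoplasm; the sample titles call the same embryos base edited. The labels do not say whether control zygotes were injected, whether every cumulus cell had been removed, or which share of alleles was edited. They also do not say whether the 2 libraries of a group came from separate rounds of fertilisation, so p-values measure only the spread between these libraries. The cell-type label of the 4-cell samples reads oocytes, and the titles, which name the 4-cell embryo, were followed.

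MHC class I molecules carry short peptides from a cell's own proteins to its surface, where T cells and natural killer cells read them. Peptides cut by the proteasome are pumped into the endoplasmic reticulum by TAP and fitted onto a heavy chain and its light chain, beta-2-microglobulin, with the help of a loading complex. In most tissues this machinery is raised by interferons and by the transactivator NLRC5. In pregnancy, class I on embryonic and placental cells is of interest because the embryo carries paternal alleles in a maternal host.

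Depth was even, with 33527531 to 35122409 reads recovered per library. Genes with at least 1 read numbered 15141 to 15438 in control and 14763 to 15066 in edited libraries. Every edited library thus held fewer detected genes than every control library. Values are CPM, a gene's reads scaled to approximately the total of its library. A count of 3 reads, the floor below which a gene is treated as not detected, corresponded to 0.0858 to 0.0899 CPM. Because CPM is not scaled by gene length, levels are compared between libraries and not between genes. RPL12 itself was 167 ± 10.2 CPM (SD, n = 2) in control and 30.5 ± 4.33 in edited 4-cell embryos, and 96.9 ± 0.942 against 12.98 ± 1.59 CPM at the 8-cell stage. Its log2 fold changes were -2.41 and -2.81 (limma, adjusted p = 2.36e-06 and 2.99e-06). The transcript was therefore lower in edited libraries at both stages. Fold changes here and below are differences of log2(CPM + 1) between group means, which understates changes of low genes, with limma's moderated test over 12129 genes (mean of at least 1 CPM) and Benjamini-Hochberg adjustment; a gene was called at an adjusted p below 0.05.

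The class I pathway genes were lower in edited embryos at both stages. B2M, BOLA, TAP1, TAPBP, CALR and PDIA3 fell, which is 6 of the 7 members that could be tested, and none rose; NLRC5 was not called. In all genes tested, 25.8% were called lower and 18.9% higher at the 4-cell stage, and 14.5% lower and 1.08% higher at the 8-cell stage. The median log2 fold change of the 7 tested members was -1.98 at the 4-cell stage and -2.00 at the 8-cell stage, against -0.016 and 0.0046 over all genes tested. For each of the 6, both edited libraries lay below both control libraries at each stage, a pattern shown by 37.5% of all genes tested at the 4-cell stage and 32.7% at the 8-cell stage. All 4 edited libraries lay below all 4 control libraries for the same 6 genes and for TAP2, which was too low for the main test; this held for 19.6% of the genes tested. In pooled embryos, fewer cells of a type and less RNA per cell cannot be told apart.

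**Figure D1:**
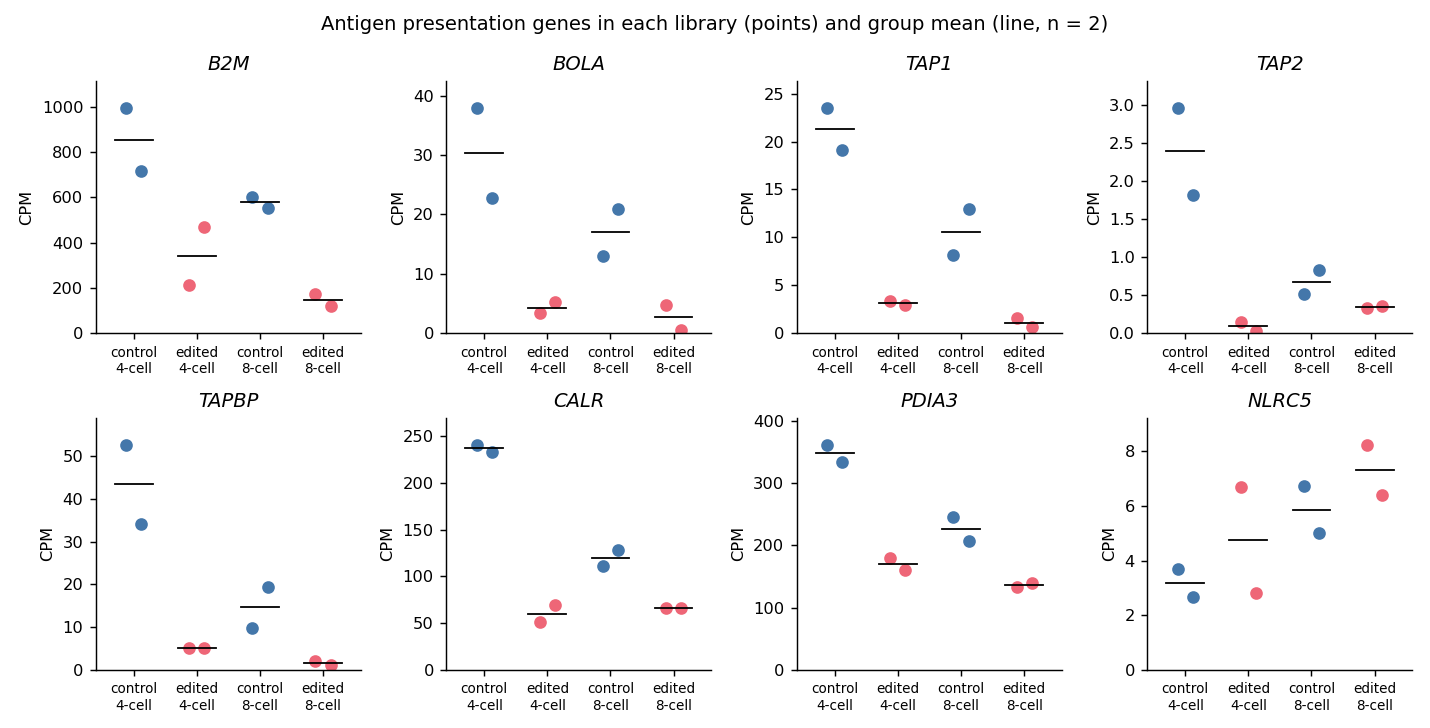
Level of each of the 8 measured antigen presentation genes in the 8 libraries (CPM, linear axes from 0, one panel per gene). Points are single libraries and horizontal bars are group means of 2 libraries; edited libraries lie below the control libraries of both stages for every gene shown except NLRC5.

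B2M encodes beta-2-microglobulin, the light chain shared by class I and class I-like molecules. It was 995 and 715 CPM in the control 4-cell libraries and 214 and 468 CPM in the edited ones, and 603 and 553 CPM in control against 172 and 120 CPM in edited 8-cell libraries. Edited libraries were the lower ones at each stage with no overlap, although the 2 edited 4-cell pools were far apart. The log2 fold change was -1.41 (SE 0.306, adjusted p = 0.00150, limma) at the 4-cell stage and -2.00 (SE 0.306, adjusted p = 0.000208) at the 8-cell stage. Without edited 4-cell replicate 1, the lower of that pair, the 4-cell value was -0.85 with adjusted p = 0.0447.

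The row BOLA holds bovine class I heavy chain, the polymorphic chain that binds the peptide. A second row, spelled BoLA, carried the same reads in all 8 libraries, and both are counted here as 1 measurement. Cattle have several near-identical class I loci, so the locus or loci behind these reads cannot be told from the table. BOLA was 38.0 and 22.8 CPM in control and 3.30 and 5.24 CPM in edited 4-cell libraries. At the 8-cell stage it was 13.0 and 20.9 CPM in control and 4.81 and 0.569 CPM in edited libraries. The groups did not overlap at either stage, and the lowest edited 8-cell library held less than the others by a wide margin. The log2 fold change was -2.55 (SE 0.510, adjusted p = 0.000805, limma) at the 4-cell stage and -2.54 (SE 0.510, adjusted p = 0.00213) at the 8-cell stage. Without edited 8-cell replicate 2 the 8-cell value was -1.59 with adjusted p = 0.0415, and with a pseudocount of 5 CPM it was -1.55. BOLA1, BOLA2B and BOLA3 share the prefix but are iron-sulfur cluster genes and not MHC, and were left out.

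TAP1 and TAP2 form the transporter that moves peptides into the endoplasmic reticulum. TAP1 was 23.5 and 19.1 CPM in control and 3.38 and 2.95 CPM in edited 4-cell libraries, then 8.15 and 12.9 CPM in control and 1.52 and 0.629 CPM in edited 8-cell libraries. The 2 libraries of each 4-cell group lay close together, and every edited library was below every control library. The log2 fold change was -2.41 (SE 0.386, adjusted p = 0.000130, limma) and -2.48 (SE 0.386, adjusted p = 0.000248) at the 4-cell and 8-cell stages, and with a pseudocount of 5 CPM the 8-cell value was -1.34. On the plain CPM scale the control mean was 6.72 times the edited mean at the 4-cell stage and 9.79 times at the 8-cell stage.

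TAP2 was much sparser. Recovered reads were 102 and 62 in control and 5 and 1 in edited 4-cell libraries, and 18 and 28 in control against 11 and 12 in edited 8-cell libraries. These correspond to 2.96 and 1.82, 0.145 and 0.0292, 0.515 and 0.828, and 0.329 and 0.359 CPM. The edited 4-cell libraries were thus near or under the floor, while those of the 8-cell stage were above it. Its mean was under 1 CPM, so it had no place among the genes tested. Tested on its reads with edgeR (quasi-likelihood), the log2 fold change was -4.65 (adjusted p = 0.00692) at the 4-cell stage and -0.90 (adjusted p = 0.616) at the 8-cell stage.

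TAPBP, CALR and PDIA3 belong to the peptide loading complex. TAPBP encodes tapasin, which ties the empty class I molecule to TAP. It was 52.7 and 34.1 CPM in control and 5.09 and 5.21 CPM in edited 4-cell libraries, and 9.87 and 19.4 CPM in control and 2.15 and 1.14 CPM in edited 8-cell libraries. Edited libraries were again below all controls, and the edited 4-cell pair was nearly equal. The log2 fold change was -2.82 (SE 0.395, adjusted p = 4.16e-05, limma) at the 4-cell stage and -2.52 (SE 0.395, adjusted p = 0.000261) at the 8-cell stage, the second of which was -1.52 with a pseudocount of 5 CPM.

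CALR (calreticulin) and PDIA3 (the disulfide isomerase ERp57) are general glycoprotein chaperones of the endoplasmic reticulum that also serve class I loading. CALR was 241 and 234 CPM in control and 50.8 and 68.9 CPM in edited 4-cell libraries; at the 8-cell stage it was 111 and 128 CPM in control and 66.6 and 65.8 CPM in edited libraries. The edited libraries of both stages therefore shared a range, and it was the control level that was lower at the 8-cell stage. The log2 fold change was -1.98 (SE 0.230, adjusted p = 7.58e-06, limma) at the 4-cell stage and -0.84 (SE 0.230, adjusted p = 0.0187) at the 8-cell stage. PDIA3 was 362 and 335 CPM in control and 180 and 161 CPM in edited 4-cell libraries, and 245 and 208 CPM in control and 133 and 140 CPM in edited 8-cell libraries. Its log2 fold change was -1.03 (SE 0.208, adjusted p = 0.000883, limma) and -0.72 (SE 0.208, adjusted p = 0.0251). The 8-cell calls of both genes were lost in some settings: in edgeR the adjusted p was 0.0654 for CALR and 0.0722 for PDIA3. CALR was also lost without control replicate 2 (adjusted p = 0.172) or without either edited 8-cell library (0.115 and 0.123), and PDIA3 without any one of the 8-cell libraries (0.0680 to 0.182) and with median-of-ratios scaling (0.0548). In the RefSeq gene table PDIA3 overlaps CATSPER2, so reads of the 2 genes may not be fully separable.

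NLRC5 encodes a transactivator that binds class I promoters. It was 3.68 and 2.67 CPM in control and 6.71 and 2.81 CPM in edited 4-cell libraries, and 6.72 and 5.00 CPM in control and 8.25 and 6.41 CPM in edited 8-cell libraries. The groups overlapped at both stages. The log2 fold change was 0.39 (95% interval -0.48 to 1.26, adjusted p = 0.471, limma) at the 4-cell stage and 0.28 (-0.59 to 1.15, adjusted p = 0.705) at the 8-cell stage. These intervals do not reach the falls of B2M, BOLA, TAP1 and TAPBP. At the low level of NLRC5, however, the added 1 CPM shrinks any fall, so its size cannot be compared with those of higher genes. On the plain CPM scale the control mean of NLRC5 was 0.667 times the edited mean at the 4-cell stage and 0.799 times at the 8-cell stage.

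The change in edited embryos was compared between stages by testing the difference of the 2 differences. For none of the 7 members was it called, whereas 2.0% of all genes were called lower and 1.95% higher. It was closest for CALR, whose fall was smaller at the 8-cell stage by 1.15 on the log2 scale (95% interval 0.46 to 1.84, adjusted p = 0.0582, limma). With a pseudocount of 5 CPM, in DESeq2, and without control 4-cell replicate 2 the adjusted p for CALR was 0.0496, 0.0430 and 0.0374. For BOLA and TAP1 the difference was 0.02 (-1.51 to 1.55) and -0.06 (-1.22 to 1.09), intervals that still allow a change of either sign of about 1 log2 unit. For B2M it was -0.59 (-1.50 to 0.33).

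The same 8 libraries were set against each other by stage. These comparisons share their control and edited libraries with the ones above, so they are given as values side by side. In control embryos 6 of the 7 tested members had lower means at the 8-cell stage, and TAPBP and CALR were called: TAPBP by -1.54 (SE 0.395, adjusted p = 0.0301, limma) and CALR by -0.99 (adjusted p = 0.0212). Over all genes 6.27% were called lower and 2.75% higher. Called or not, lower and higher values were about equally common over all genes, with a median log2 fold change of 0.0059. With median-of-ratios scaling the split of 760 lower and 334 higher genes became 888 and 189, and for the difference between stages 243 and 237 became 142 and 208. Neither member was called in edgeR, without the filter on low values, in a fit of the 4 control libraries alone, without control 4-cell replicate 1 or without control 8-cell replicate 1. In edited embryos B2M alone was called lower at the 8-cell stage, by -1.13 (95% interval -1.78 to -0.49, adjusted p = 0.0440, limma). Of all genes, 3.73% were called lower and 1.45% higher there. The B2M call was lost in edgeR (adjusted p = 0.0852). In limma it was lost with median-of-ratios scaling (0.0656), a pseudocount of 0.1 CPM (0.0513) and no filter (0.179). Without edited 4-cell replicate 2, the higher of its pair, the B2M value was -0.57, and the call was also lost without either edited 8-cell library. NLRC5 had higher means at the 8-cell stage, by 0.72 in control (adjusted p = 0.260) and 0.61 in edited embryos (adjusted p = 0.421), and neither was called.

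Other genes that act before and during class I loading were taken as a list of 20, of which 19 were tested. The counts of this and the following lists stand beside the shares of all genes tested: 25.8% called lower and 18.9% higher at the 4-cell stage, and 14.5% and 1.08% at the 8-cell stage. At the 4-cell stage 11 fell and 1 rose, with a median of -1.24; at the 8-cell stage 9 fell and none rose, with a median of -0.74. The inducible catalytic subunits of the immunoproteasome were among those that fell. PSMB9 was 322 and 214 CPM in control against 18.6 and 23.1 CPM in edited 4-cell libraries (log2 fold change -3.60), and PSMB10 was 109.99 and 74.8 CPM against 4.17 and 6.76 CPM (-3.86). At the 8-cell stage the values were 76.9 and 123 against 23.5 and 12.1 CPM for PSMB9 (-2.46), and 26.5 and 58.5 against 3.74 and 3.98 CPM for PSMB10 (-3.06). PSMB8, the remaining inducible subunit, changed by -3.25 and -2.49. In the RefSeq gene order TAP1 lies between PSMB8 and PSMB9, within the MHC region.

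The proteasome activator subunits PSME1 and PSME2, which open the proteasome gate, changed by -2.38 and -3.08 at the 4-cell stage and by -2.10 and -2.77 at the 8-cell stage. PSME2 was 410.3 ± 84.2 CPM (SD, n = 2) in control and 47.9 ± 11.8 CPM in edited 4-cell embryos. BCAP31, an export receptor of the endoplasmic reticulum, was 583 ± 203 against 65.9 ± 3.90 CPM. ERAP1, the aminopeptidase that trims peptides to fit, changed by -1.70 and -1.12, and the chaperone HSPA5 by -1.60 and -1.41. Against that direction, NPEPPS, a cytosolic aminopeptidase, rose by 0.93 at the 4-cell stage (adjusted p = 0.00744, limma). CANX (calnexin), which holds new heavy chains before calreticulin does, was 193 and 234 CPM in control and 191 and 183 CPM in edited 4-cell libraries. Its log2 fold change of -0.18 (95% interval -0.63 to 0.27) and, at the 8-cell stage, -0.33 (-0.78 to 0.12) was not called.

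**Figure D2:**
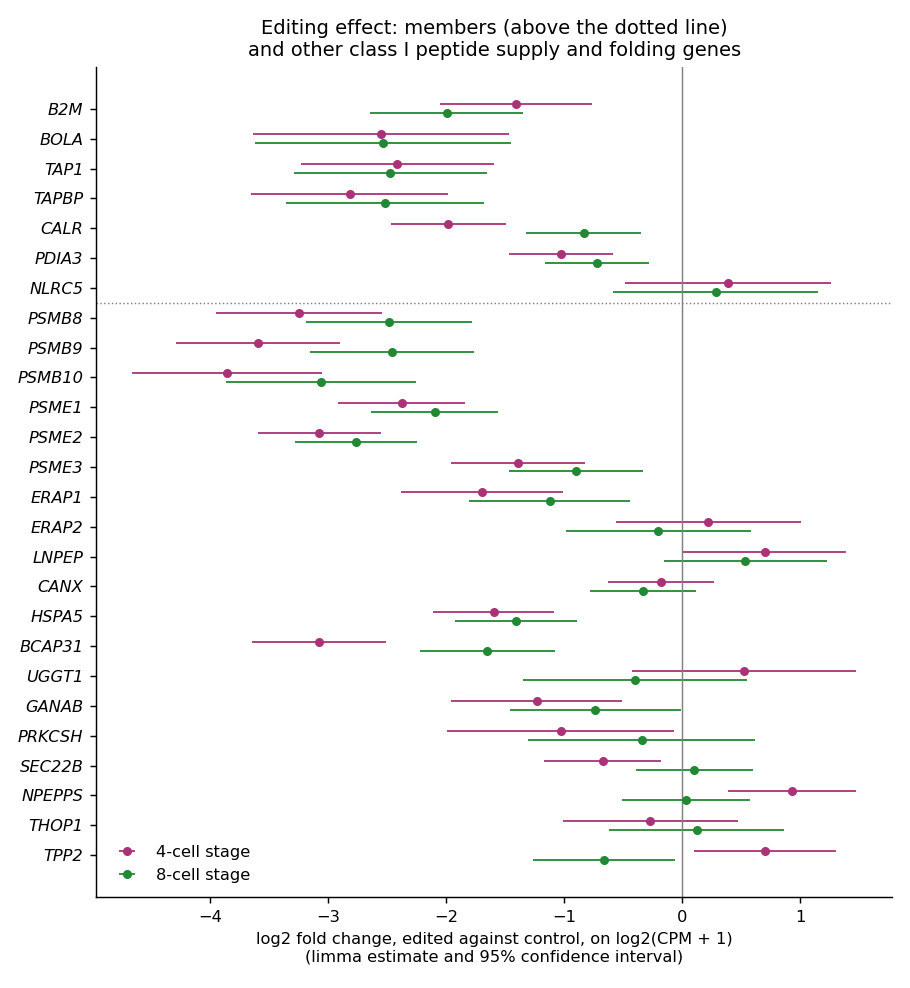
Edited minus control difference of log2(CPM + 1) at the 4-cell and 8-cell stages for the 7 tested members (above the dotted line) and the 19 tested loading genes, with 95% intervals from limma. The 6 members other than NLRC5 lie below 0 at both stages. The intervals of NLRC5 span 0 at both stages, as do those of the loading genes CANX, ERAP2, UGGT1 and THOP1. NPEPPS, LNPEP and TPP2 lie above 0 at the 4-cell stage, and 10 of the 19 loading genes were not called at the 8-cell stage.

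Class I-like molecules also pair with beta-2-microglobulin or share the fold. Of 14 listed, 8 were in the table and 4 were tested: 3 fell at the 4-cell stage and 1 at the 8-cell stage, with medians of -1.50 and -0.57. BOLA-NC1, a non-classical class I gene, was 68.9 and 53.4 CPM in control and 2.57 and 4.86 CPM in edited 4-cell libraries (-3.75), and 16.2 and 28.2 against 4.66 and 3.14 CPM at the 8-cell stage (-2.21). Its reads may be shared with other class I loci. MR1, which presents vitamin metabolites, and FCGRT, the neonatal Fc receptor, changed at the 4-cell stage by -1.23 and -1.77. MR1 was called in 11 of 16 alternatives, with values from -2.18 to -0.47, and its call was lost in edgeR and without any one of the 4-cell libraries (adjusted p up to 0.137).

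Class II molecules present peptides taken up from outside the cell. Of 19 listed genes, 12 were in the table and 7 tested; 3 fell at the 4-cell stage and 2 at the 8-cell stage, where 25.8% and 14.5% of all genes were called lower, with medians of -0.78 and -0.27. BOLA-DMB, a chain of the peptide exchange factor DM, was 14.1 and 10.1 CPM in control and 0.607 and 0.497 CPM in edited 4-cell libraries. At the 8-cell stage it was 3.92 and 4.32 CPM against 0.120 and 0 CPM. Its partner BOLA-DMA was 9.79 and 8.00 CPM against 6.28 and 3.54 CPM at the 4-cell stage and was not called (-0.78, adjusted p = 0.112, limma). CIITA, the class II master regulator, was between 0 and 0.176 CPM in the 8 libraries and was not tested. The other genes that fell were CTSL and IFI30, a lysosomal protease and a lysosomal thiol reductase that also act outside class II, at the 4-cell stage, and the protease SPPL2A at the 8-cell stage.

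**Figure D3:**
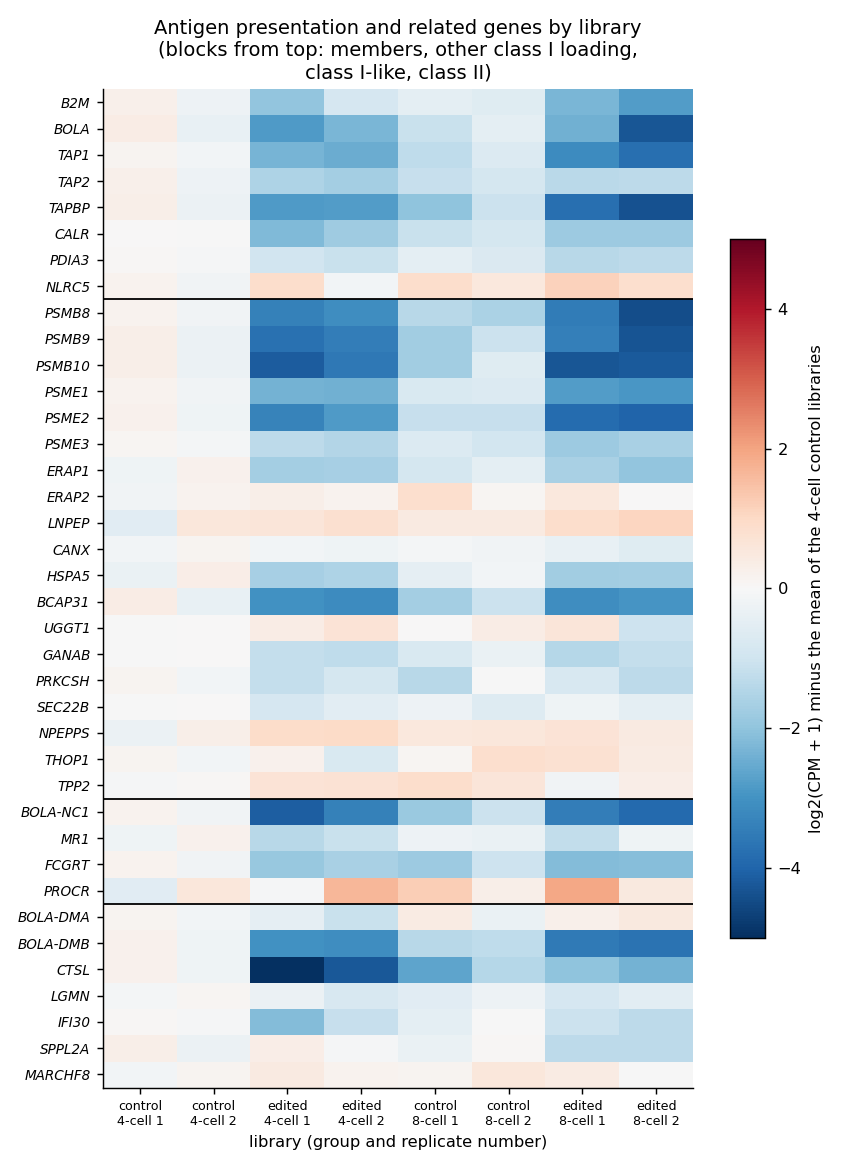
Level of the 8 measured members, and of the tested class I loading, class I-like and class II genes, in each of the 8 libraries, as log2(CPM + 1) minus the mean of the control 4-cell libraries (blue, lower; red, higher). The members other than NLRC5 are blue in the edited columns, palest for PDIA3, and CTSL and the immunoproteasome genes are among the darkest rows at the 4-cell stage; CANX stays near 0 throughout.

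The list of transcription factors and interferon receptors that govern MHC genes moved in both directions at the 4-cell stage. Of 24 tested, 10 fell and 5 rose there, with a median of -0.52, and 8 fell (5 without control replicate 2) and none rose at the 8-cell stage, with a median of -0.24. IFNGR2, the signalling chain of the interferon gamma receptor, was 111 and 66.2 CPM in control and 8.01 and 9.10 CPM in edited 4-cell libraries (-3.19), then 25.2 and 25.0 against 2.93 and 3.03 CPM (-2.72). IRF9, a DNA-binding factor of the interferon response, changed by -3.49 and -2.18.

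The RFX complex, which binds the X box of class I and class II promoters with NLRC5 or CIITA, was split. RFXANK was 74.6 and 79.3 CPM in control and 7.38 and 10.1 CPM in edited 4-cell libraries (-3.02), and changed by -1.67 at the 8-cell stage. RFX5 was 9.36 and 18.4 against 25.8 and 28.3 CPM at the 4-cell stage (0.98, adjusted p = 0.0241, limma), and RFXAP rose by 1.13. JAK1, IFNGR1 and NFYB also rose at the 4-cell stage, by 0.60 to 0.77. Of these 5 rises, 1 was left without control 4-cell replicate 1 and 0 without edited 4-cell replicate 2.

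Beside these, 24 of 26 tested interferon-stimulated genes fell at the 4-cell stage and 23 at the 8-cell stage, with none higher and medians of -2.49 and -3.02. ISG15, a ubiquitin-like antiviral modifier, was 1204 ± 510.2 CPM (SD, n = 2) in control and 87.2 ± 6.98 CPM in edited 4-cell embryos, and 521 ± 196 against 28.9 ± 9.54 CPM at the 8-cell stage. Their summed level was 12179 to 19187 CPM in control and 1507 to 1881 CPM in edited 4-cell libraries, and 5411 to 8350 against 1033 to 1237 CPM at the 8-cell stage. Chaperones of the endoplasmic reticulum outside the loading complex moved the same way in part: 8 of 13 fell at the 4-cell stage and 5 at the 8-cell stage, with medians of -1.04 and -0.48. PPIB, a prolyl isomerase of that compartment, was 692 ± 75.3 against 67.7 ± 21.9 CPM at the 4-cell stage and 262 ± 39.7 against 38.8 ± 5.73 CPM at the 8-cell stage. Without control 8-cell replicate 1 or 2 the 8-cell count was 2, and without edited replicate 1 it was 1. The summed level of the 8 members was 1364 to 1719 against 464 to 714 CPM at the 4-cell stage, and 948 to 997 against 335 to 389 CPM at the 8-cell stage.

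Markers of other cells were read in the same libraries. Of 20 tested cumulus and granulosa markers, the somatic cells around the oocyte, 13 fell and 2 rose at the 4-cell stage and 6 fell at the 8-cell stage, with medians of -1.40 and -1.18. Their summed level was 1529 to 1906 CPM in control and 487 to 541 CPM in edited 4-cell libraries. At the 8-cell stage it was 674 to 1028 against 508 to 535 CPM. STAR was 154 and 143 CPM in control and 174 and 213 CPM in edited 8-cell libraries. HAS2 was 74.9 and 88.8 CPM in control and 124 and 106 CPM in edited 8-cell libraries. Neither was lower there, and together they held a large part of the edited sums. CYP11A1, the side-chain cleavage enzyme of steroid synthesis, was 227 and 201 against 3.33 and 14.5 CPM, then 29.1 and 133 against 12.7 and 4.97 CPM. The luteinising hormone receptor LHCGR lay between 0 and 0.0578 CPM in all 8 libraries, under the 3-read floor. HAS2 and GREM1 were the 2 that rose at the 4-cell stage, with HAS2 at 24.3 and 55.4 CPM in control and 132 and 124 CPM in edited libraries. Of the control 8-cell libraries, replicate 2 held the higher summed marker level, 1028 against 674 CPM. Most single markers were also higher in replicate 2, among them CYP11A1, HSD3B1, FST, INHA and KRT8. Only CD44, STAR, PTGS2, CYP19A1, GREM1, LHCGR and AMHR2 were higher in replicate 1. Among the members, replicate 2 was the higher one for BOLA, TAP1, TAP2, TAPBP and CALR, and the lower one for B2M, PDIA3 and NLRC5. The part of cumulus and granulosa cells in the fall of the class I genes was not tested.

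Leukocyte markers summed to 32.9 to 37.6 CPM in control and 35.9 to 49.6 CPM in edited 4-cell libraries, and to 42.7 to 43.4 against 49.3 to 61.8 CPM at the 8-cell stage. Their sum was therefore not lower in edited libraries, but LCP1 alone gave 9.79 to 22.1 CPM of it. Markers too low to be tested went both ways. CORO1A was 1.07 and 1.58 CPM in control and 0.0578 and 0 CPM in edited 4-cell libraries, and 0.486 and 0.296 against 0 and 0 CPM at the 8-cell stage. CD14 had higher means in edited embryos at both stages. Of 6 tested, CD68 fell and MS4A1 rose at the 4-cell stage and CD3E rose at the 8-cell stage, and leaving out any one library of the 4-cell stage ended the first pair of calls. CD3E was called in 10 of 16 alternatives, with adjusted p up to 0.264. PTPRC, the pan-leukocyte antigen CD45, lay between 0.0578 and 0.673 CPM. Oocyte and early embryo genes, which mark the labelled material, were present in every library: they summed to 19984 to 25909 CPM in control and 50210 to 58214 CPM in edited 4-cell libraries, and to 38120 to 50654 against 53154 to 56003 CPM at the 8-cell stage. Of 17 tested, 7 rose and 1 fell at the 4-cell stage (4 and 3 rose without control replicate 1 or edited replicate 1), and 2 rose at the 8-cell stage, ZP3 and MOS (0 without either edited 8-cell library). OOSP2 was 931 ± 364 CPM in control and 6432 ± 335 CPM in edited 4-cell embryos, and BTG4, which acts in maternal mRNA decay, 13470 ± 2057 against 33202 ± 6167 CPM. CPM values are shares of a library, so a larger share taken by one group of genes lowers the rest. The part of this shift in the members' values was not tested.

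**Figure D4:**
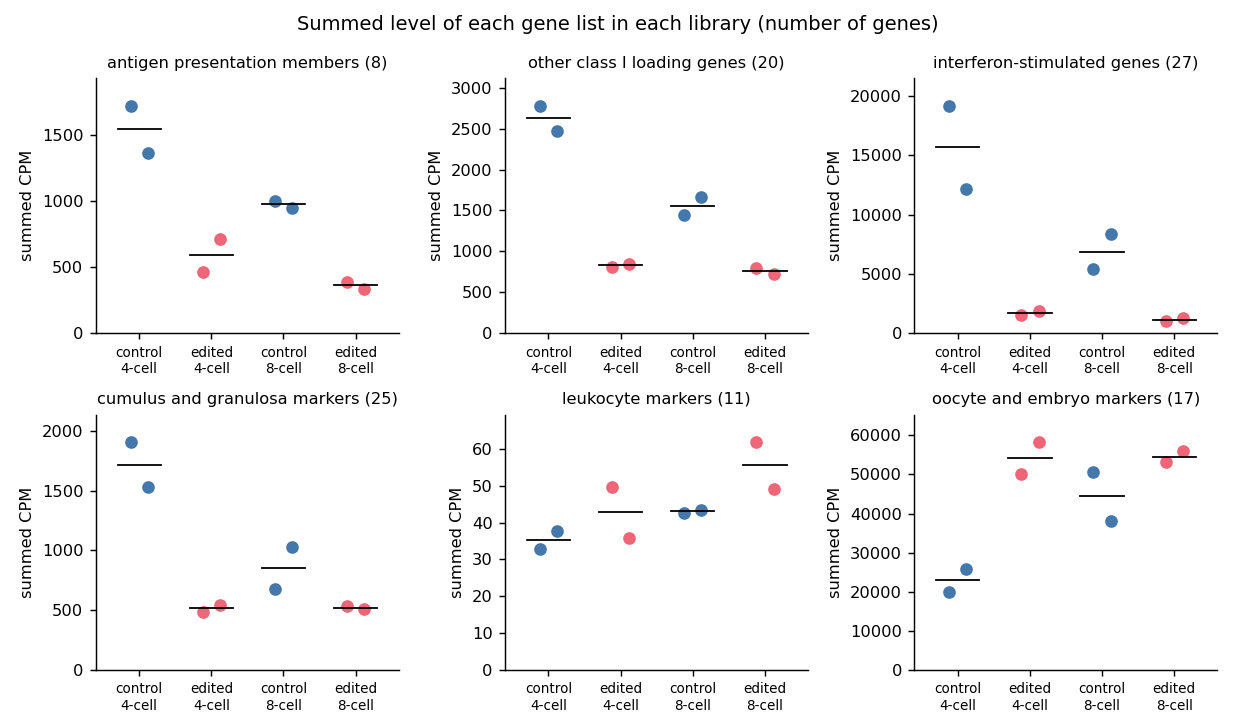
Summed level (CPM, linear axes from 0) of the antigen presentation genes and of 5 other gene lists in each of the 8 libraries (points), with the mean of each group (line). The members, class I loading genes, interferon-stimulated genes and cumulus and granulosa markers are lower in edited libraries of both stages, while leukocyte markers are not and the oocyte and early embryo genes are higher.

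Over the 8 libraries the members, NLRC5 aside, varied together. Pearson's r of log2(CPM + 1) was 0.992 between TAP1 and TAPBP, 0.962 between BOLA and TAP1 and 0.931 between B2M and BOLA. The lowest values among them were those of the sparse TAP2, 0.686 with B2M and 0.785 with BOLA. NLRC5 ran from -0.45 to -0.67 against the others. These values describe 8 libraries that fall into edited and control groups and share their depth and scaling, and they say nothing within a group. By the same measure, among genes of at least 10 CPM, the patterns nearest to B2M were TFAM (0.993), RAP1GDS1 (0.991), HEBP2 (0.989) and TMSB15B (0.988). Those nearest to BOLA, beside its duplicate row, were RETREG1 (0.990), COPS5 (0.988) and PPP1R7 (0.987). Nearest to CALR were DHRS4 (0.998), TMEM183A (0.997), PRCP (0.995) and NT5C3B (0.995). None of these is a gene of the MHC class I pathway.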

How the data were processed

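RNA-seq libraries of pooled embryos were made with a Smart-seq2 v4 kit and Nextera XT, per the labels' protocols. The submitters' processing notes name Trim Galore 0.6.7, HISAT2 2.2.1 and featureCounts 2.0.1; the genome build and annotation are not given in the sources used here. The table the authors deposited holds CPM, although it is named as raw counts. Column sums were 992528 to 1007024, so the scaling was close to, but not exactly, each library's total of recovered reads. Every value was a whole multiple of 1 read (100% within 0.05 reads), so read counts were recovered. Of its columns, 8 matched a sample and 4 matched none and were not used.

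Tests were limma 3.58.1 (R 4.3.3, intensity trend) on log2(CPM + 1), with 12129 genes of mean at least 1 CPM, 1 mean per group and all 8 libraries sharing 1 spread. Alternatives were edgeR 4.0.16 and DESeq2 1.42.0 on recovered reads, other scaling, pseudocounts of 0.1 and 5 CPM, no filter, fewer libraries and a replicate block. On the recovered reads edgeR called 2694 genes lower and 2478 higher at the 4-cell stage and 1599 and 96 at the 8-cell stage.

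Members and gene lists were chosen with earlier results of these data known. All members are named. From each other list the rule took up to 4 called genes per stage with the smallest p and groups that did not overlap. It also took the genes with the nearest patterns to B2M, BOLA and CALR. Not every gene that the rule took from a list is named in the text. Genes named outside the rule were chosen after their values were seen. Gene order comes from RefSeq (ARS-UCD2.0); no coordinates are given because the files' build is unknown here. No p-value was adjusted over a list alone. The values of 1 gene of the regulator list are not reported here.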

Additional observations from a re-analysis of the deposited data

Results flagged for a closer look

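For 6 of the listed genes the change in edited embryos differed between the stages by limma's test of the difference itself, given as the 8-cell minus the 4-cell value on the log2 scale. The protease CTSL changed by -4.61 at the 4-cell stage and -0.16 at the 8-cell stage, a difference of 4.443 (adjusted p = 0.00681). It was 30.6 ± 7.04 CPM (SD, n = 2) in control and 0.322 ± 0.455 in edited 4-cell embryos, and 7.38 ± 4.65 against 5.92 ± 1.09 CPM at the 8-cell stage. Because its edited 4-cell libraries held 0 and 0.643 CPM, the 4-cell value moved with the pseudocount, from -6.80 at 0.1 CPM to -2.73 at 5 CPM. BCAP31 changed by -3.08 and -1.65, a difference of 1.429 (adjusted p = 0.0467). The folding factor CRELD2 changed by -2.01 and -0.48, a difference of 1.53 (adjusted p = 0.0393). The interferon-stimulated gene IFI27 changed by -4.82 and -2.39, a difference of 2.423 (adjusted p = 0.00989). The oocyte gene OOSP2 changed by 2.84 and 0.32, a difference of -2.525 (adjusted p = 0.00681). The interferon-stimulated gene IFI44L, outside the rule for named genes, fell further at the 8-cell stage: it changed by -1.46 and -3.11, a difference of -1.65 (adjusted p = 0.0391). Without either edited 4-cell library no gene of the table was called for this difference (2748 and 2376 genes at an unadjusted p below 0.05).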

How the results depend on the processing

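The 6 falls at the 4-cell stage were called in each of the 16 alternatives, as were those of B2M, BOLA, TAP1 and TAPBP at the 8-cell stage; CALR was called there in 12 and PDIA3 in 10. No called value changed sign. Among values that were not called, NLRC5 at the 4-cell stage ran from -0.12 to 0.90, and the difference between stages took either sign for BOLA (-0.93 to 0.96), TAP1 (-0.60 to 0.34), TAPBP (-0.15 to 0.75) and NLRC5 (-0.61 to 0.40), as did the stage change in edited embryos for CALR (-0.06 to 0.38) and BOLA (-1.72 to 0.17). The number of members whose change differed upward between stages, 0, became 1 in DESeq2 and with a pseudocount of 5 CPM, and 0 to 1 when leaving out a library. Members lower in control embryos at the 8-cell stage, 2, became 0 in edgeR, 1 with a pseudocount of 0.1 CPM, 3 in DESeq2 and with a pseudocount of 5 CPM, 0 without the filter and 0 with only the 4 libraries compared, and 0 to 2 when leaving out a library. The count for edited embryos, 1, became 0 in edgeR, 3 in DESeq2, 0 with median-of-ratios scaling, 0 without the filter and 0 to 1 when leaving out a library. With a pseudocount of 0.1 CPM the count for edited embryos stayed at 1, but TAPBP (adjusted p = 0.0478, limma) was called in place of B2M. Where an arm was left with 1 library, that library was assumed to vary like the rest. The cause of these shifts was not tested.
Counts over all genes also moved: 760 lower and 334 higher genes in control embryos became 61 and 25 in edgeR and 0 and 0 without the filter (3718 at an unadjusted p below 0.05 in limma), 6 and 7 without control 4-cell replicate 1, and 11 and 14 without control 8-cell replicate 1. In edited embryos 452 and 176 became 3 and 4 without edited 4-cell replicate 2. For the difference between stages 243 and 237 became 12 and 6 in edgeR and 0 and 0 without the filter (2987 at an unadjusted p below 0.05 in limma). The 5 rises among regulators became 3 without the filter or with only the 4 libraries compared. The 13 cumulus and granulosa falls at the 4-cell stage became 8 in edgeR, and the 6 at the 8-cell stage became 2 without the filter. The 5 falls of folding genes at the 8-cell stage became 3 without the filter, the 7 oocyte gene rises at the 4-cell stage became 2 without it, and the 2 class II falls at the 8-cell stage became 1 without control replicate 2 or either edited library.
The replicate numbers were not taken as pairs, with only 2 numbers per group. Deviations of same-numbered libraries correlated at 0.11 and -0.09 for the editing comparisons at the 4-cell and 8-cell stages. With the replicate block, 6 members were lower at each stage, and all-gene counts were 3053 lower and 2171 higher at the 4-cell stage. In control embryos across stages the correlation was -0.30, and crossed numbers, chosen after seeing the data, gave 1126 lower and 564 higher genes.
Among the members depth bears most on TAP2, at 1 to 12 reads in edited libraries.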

Other observations

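The inducible proteasome subunits were set beside the constitutive subunits that they replace in the immunoproteasome, a choice made after the values of the inducible ones had been seen, so no test is given. PSMB6, the counterpart of PSMB9, was 801 ± 225 CPM (SD, n = 2) in control and 90.3 ± 5.85 CPM in edited 4-cell embryos, and 347 ± 117 against 71.6 ± 2.42 CPM at the 8-cell stage. Its control mean was 8.87 and 4.84 times the edited mean, against 12.8 and 5.62 times for PSMB9. PSMB7, the counterpart of PSMB10, had ratios of 2.71 and 2.36, against 16.9 and 11.02 for PSMB10. PSMB5, the counterpart of PSMB8, was at most 0.449 CPM in any library, so no ratio is given. PSMB6 and PSMB7 were therefore also lower in edited embryos, and of the 2 pairs that can be read, the gap was wide for PSMB7 and PSMB10 and narrow for PSMB6 and PSMB9.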
